A study of Arabidopsis thaliana with 18 samples.

Results

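Splicing in leaves of the Arabidopsis thaliana accession C24 was compared with that of Col-0, the accession of the reference genome. The members are the 2 libraries labelled C24 and the 2 labelled Col-0, 4 of the 18 libraries of the study; the others come from the pure accessions Bur-0, Kro-0 and Ler-1 and from the F1 hybrids of Col-0 with each other accession. PolyA RNA came from the first leaf of seedlings 14 days old, raised on medium with 1% sucrose at 22 °C in 16 h of light (100 µmol per m2 and s) and at 18 °C in 8 h of dark, with 2 biological replicates per group. Neither group was treated, and no transgene or mutant is involved: C24 and Col-0 differ by their natural genomes. Splicing events were matched between the deposited lists by type, position and locus, so that 5546 events in 2656 genes were shared by the C24 list (5666 events) and the Col-0 list (6171 events). Of these, 5168 events in 2638 genes had at least 10 reads in each of the 4 libraries and were tested, and 378 fell below that minimum.

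The spliceosome removes an intron after it has recognised a donor site at the 5′ end, usually GT, and an acceptor site at the 3′ end, usually AG. A gene yields different transcripts when an intron is kept (intron retention), when a neighbouring donor or acceptor is used instead, or when an exon is skipped; in plants intron retention is the most frequent of these. Each event has 2 forms, and its PSI (percent spliced in) is the percentage that reads keeping more sequence (retained intron, shorter of 2 introns, included exon) make up of all reads of the event, with 1 read added to that total. The added read keeps PSI under 100 where reads are few: in AT3G61420, 39 of 39 C24 reads retained the intron and the mean PSI was 94.7%.

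The reference sequence (RefSeq, TAIR10.1) around splice sites that show how the accessions differed is given first: sites without the usual letters, closely spaced sites, and a pair of donors used by one accession each. It is the Col-0 genome; C24 sequence was not used here. Capitals mark the first 2 bases of an intron at a donor or the last 2 at an acceptor, and all sequences run 5′ to 3′ on the strand of the gene. In AT1G70620 (chr1:26627825-26627850, plus strand), C24 used the acceptor that reads AC in the reference, and Col-0 the AG after it. In AT2G04790 (chr2:1679883-1679911, plus strand), C24 used a donor that, in the reference, reads GA and lies 19 nt after the GT used by both. In LARP6a (chr5:18757777-18757802, plus strand), C24 used mostly the first donor, GC, and Col-0 the GT after it. In SR30 (chr1:2944958-2944986, minus strand), the first capitals mark an acceptor with reads in C24 and none in Col-0. AT1G33470 (chr1:12145673-12145695, plus strand) has 2 acceptors in direct sequence, and AT3G07510 (chr3:2394557-2394582, minus strand) has 2 donors 6 nt apart. The donors of AT3G57810 used in C24 (chr3:21415930-21415949) and in Col-0 (chr3:21415978-21415997, both plus strand) are given as a pair, as are those of GGH3 used in Col-0 (chr1:29591905-29591924) and mostly in C24 (chr1:29591957-29591976, both plus strand).
AT1G70620 acceptors: tctgtttgcACgtaaAGaagagtctg
AT2G04790 donors: ccagGTtctgattctcagacatcGAatgt
LARP6a donors: gcggcaacgGCattgGTacttttctt
SR30 acceptors: gttATttgctatttacgggtgattAGgat
AT1G33470 acceptors: tgtttttacAGcAGagctattac
AT3G07510 donors: ttccctcatGTatgaGTaagcaaacc
AT3G57810 donor used in C24: aaatcagagTTgagtataat
AT3G57810 donor used in Col-0: tccaccttgGTaatcctcca
GGH3 donor used mostly in C24: tccatatatGTaaagcaatg
GGH3 donor used in Col-0: ataagtcagGTcactctttt

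The first question was how many events differ between the accessions. Between C24 and Col-0, 296 of the 5168 tested events (5.73%), in 213 genes, passed the edgeR quasi-likelihood test (Benjamini-Hochberg adjusted p under 0.05; such events are named calls below), with 134 higher (2.59%) and 162 lower (3.13%) in C24. A further condition, a difference of at least 10 percentage points, was met by 184 calls (3.56%), of which 74 were higher and 110 lower, and 30 calls differed by 50 points or more. In all 296 calls both libraries of one accession lay above both of the other, but that was also so for 2443 of all tested events (47.3%). When each form was scaled by TMM on its own, the median log2 odds difference over all events moved to -0.31, against -0.048 without it, and 101 of 307 calls were higher and 206 lower. Lower calls outnumbered higher ones with either scaling, and the size of that lean changed with it.

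Fewer reads were counted at the events in C24. The C24 libraries held 3636688 and 3186952 reads over their listed events, against 5680940 and 5812703 in the Col-0 libraries, and the median tested event had 73 and 69 reads, against 123 and 127. Replicates of an accession differed by a median of 2.18 points in C24 and 1.94 points in Col-0, while the accessions differed by a median of 2.23 points. The read added in PSI lowers it more where reads are fewer, as in C24. The median signed difference (C24 minus Col-0) was -1.36 points at a lowest depth of 10 to 29 reads. It was -0.663 points at 30 to 99 reads and -0.0465 points at 100 or more. How much of this lean the added read makes was not tested. RBCS1A, the small subunit of Rubisco and a marker of leaf mesophyll, took 20% and 19.1% of the reads in C24, against 20% and 18.9% in Col-0. A difference in the makeup of cell types in these whole leaves and a difference within cells cannot be told apart. PSI compares 2 forms within a gene, so events of marker genes do not measure how many cells of a type were present. The mesophyll marker CA1 had 3 calls, all higher in C24, the largest of 0.74 points. Among markers of other cell types only FAMA and MYB60 (guard cells) and ATML1 (epidermis) had a tested event, 1 each. The edgeR test called none of the 3 (adjusted p 0.744 to 1.0). Markers of trichomes, phloem and root had no tested event. At the depth minimum, 28 events just below it (lowest depth 9 reads) had a median absolute difference of 10.4 points and 43 just inside it (10 reads) one of 7.49 points.

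**Figure D1:**
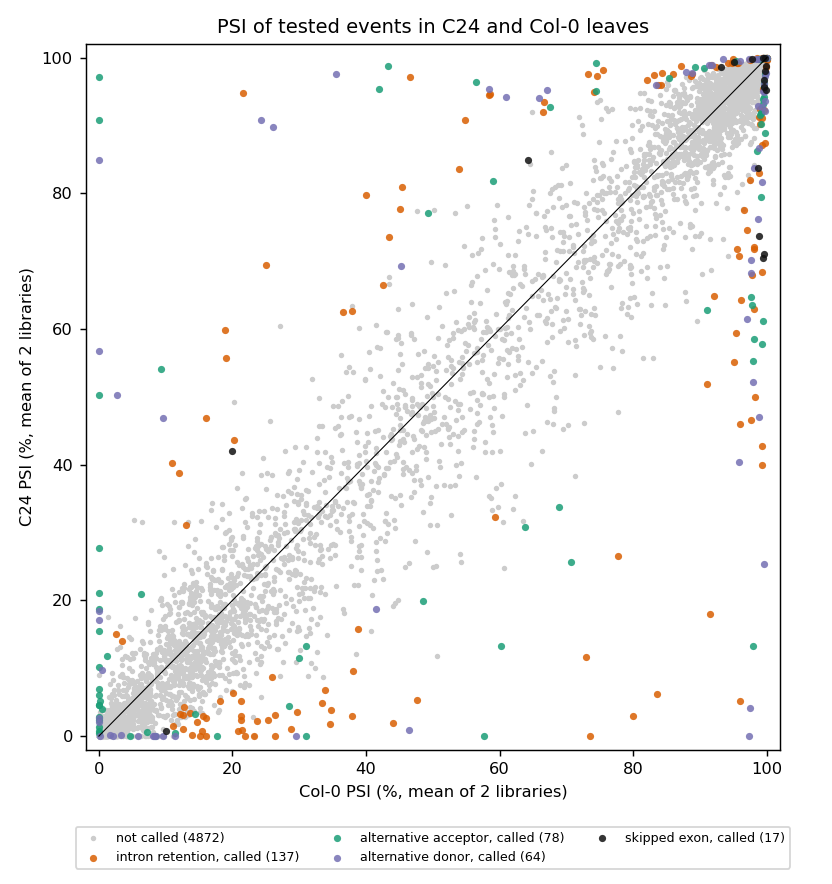
Mean PSI in C24 (vertical axis, %) against mean PSI in Col-0 (horizontal axis, %), each over 2 libraries, for the 5168 tested events; grey points were not called, coloured points are the 296 calls by event type, and the line marks equal PSI. Most calls lie far from the line or close to PSI 0 or 100 in one accession.

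Intron retention gave the most calls: 137 of 1879 tested events (7.29%) passed the test, with 58 higher in C24 and 79 lower. Among those of at least 10 points, 36 were higher and 65 lower. The median PSI over the tested retention events was 68.2% and 67.9% in the C24 libraries, against 70.4% and 70.3% in the Col-0 libraries. The median difference per retention event was smaller, -0.205 points, and the share of all retention reads that kept the intron was 94.5% and 93.8% in C24, against 94.0% and 94.6% in Col-0. The median over all tested events varied with depth, as given above, and the retention medians were not split by depth. The difference in median PSI of -2.31 points had p = 0.333 in a two-sided exact permutation test, the smallest p that 2 libraries against 2 can give. The same difference was -0.935 points for acceptors (exact permutation p = 0.333; 1.24 points, the other direction, for the share of all their reads), -2.05 points for donors (p = 0.667) and -0.422 points for skipped exons (p = 1.0). Retention of introns annotated in TAIR10.1 was called in 83 of 1190 events (6.97%), and that of stretches not annotated as introns in 54 of 689 (7.84%).

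The largest fall in retention was in SR34b, which encodes a serine/arginine-rich splicing factor. A 69 nt stretch of its coding span (chr4:1071216-1071284) had a PSI of 2.08% and 8.16% in the C24 libraries, against 95.2% and 96.6% in the Col-0 libraries. The stretch was removed in 90 of 95 C24 reads and in 0 of 48 Col-0 reads (up to 6.25%; edgeR adjusted p = 3.11e-06). In the C24 assembly it measures 82 nt. Kro-0 (0.909% ± 1.29) was near C24, and Bur-0 (96.2% ± 0.303) and Ler-1 (92.1% ± 2.91) were near Col-0 (SD, n = 2 each). A second stretch of 236 nt in the same gene (chr4:1070887-1071122) was also removed mainly in C24, with a PSI of 27.0% and 9.09% in C24, against 87.5% and 95.5% in Col-0 (edgeR adjusted p = 0.000245; 0.144 at the highest without 1 library). Neither stretch is an annotated intron, although both begin with GT and end with AG in the reference.

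Next came 3 annotated introns that, by their PSI, C24 removed almost completely and Col-0 mostly kept. The 161 nt intron of AT2G14255, which encodes an ankyrin repeat protein with a DHHC zinc finger, had a PSI of 0.0% and 12.5% in C24, against 88.4% and 78.7% in Col-0 (edgeR adjusted p = 3.95e-05). In the C24 assembly this intron measures 125 nt. The 77 nt intron of AT5G58980, a neutral ceramidase gene, had a PSI of 5.88% and 0.0% in C24, against 73.1% and 87.0% in Col-0 (edgeR adjusted p = 0.000568). The 208 nt intron of AT2G39280, which encodes a protein with a Rab GTPase-activating domain, was retained in 0 of 41 C24 reads (up to 7.32%) and 41 of 54 Col-0 reads (edgeR adjusted p = 0.00013). Another 16 Col-0 reads were spliced from the same donor to an acceptor 15 nt away, and the 54 leave them out. Retention was low in Bur-0, Kro-0 and Ler-1 as well, with a PSI of at most 3.52% in each of these genes, and the difference of C24 from their mean was not called.

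The largest rise in retention was in AT3G61420, whose product carries a BSD domain found in transcription factor subunits. Its 99 nt intron (chr3:22730087-22730185) had a PSI of 96.2% and 93.3% in C24, against 22.2% and 20.9% in Col-0 (edgeR adjusted p = 5.92e-05). The 87 nt intron of AT3G07510 was at 97.3% and 97.1% in C24, against 48.8% and 44.4% in Col-0 (edgeR adjusted p = 0.000184). This value counts splicing from the first of 2 donors 6 nt apart only. Reads spliced from the second donor to the same acceptor, 83 in C24 and 20 in Col-0, are not part of it. The value thus does not show that C24 left this intron unspliced. In AT3G19520, a gene for a protein of unknown function, the 104 nt intron was at 66.7% and 52.9% in C24, against 18.6% and 19.0% in Col-0 (edgeR adjusted p = 0.00501). AT3G63445 is a long noncoding RNA gene whose 82 nt stretch was at 65% and 73.9% in C24, against 33.3% and 16.7% in Col-0 (edgeR adjusted p = 0.0192). This stretch reads CT and AC at its ends, which is AG and GT on the other strand, and CKX6, a cytokinin oxidase gene, overlaps the locus. The library protocol in the labels names no step that marks the strand, so reads of AT3G63445 and CKX6 cannot be told apart. Of the 8 largest retention calls, that of the 69 nt stretch of SR34b was kept without any 1 of the 4 libraries, and the other 7 were lost in at least 1 such fit, with a highest adjusted p of 0.0709 to 0.315.

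Alternative acceptors were called in 78 of 1780 events (4.38%), 40 higher and 38 lower in C24. The 2 accessions used entirely different acceptors in AT1G70620, which encodes a cyclin-like protein. The acceptor that keeps 6 nt more, AC in the reference as printed above, had a PSI of 97.3% and 96.9% in C24, against 0.0% and 0.0% in Col-0. It took 67 of 67 reads in C24 and 0 of 46 in Col-0 (up to 6.52%; edgeR adjusted p = 3.11e-06). The intron measures 317 nt in the C24 assembly and 301 nt in the reference. AT3G52050, a gene for an exonuclease family protein, used an acceptor that keeps 27 nt more in 42 of 44 C24 reads and 0 of 31 Col-0 reads (edgeR adjusted p = 9.07e-05).

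AL6 encodes an Alfin-like protein, a PHD finger reader of histone methylation. Its acceptor that keeps 27 nt more had a PSI of 98.9% and 98.5% in C24, against 49.6% and 37.0% in Col-0 (edgeR adjusted p = 3.11e-06), so Col-0 leaves held both forms and the 157 C24 reads were all of one. Bur-0 (99.1% ± 0.113) and Kro-0 (99.1% ± 0.0873) were as high as C24, and Ler-1 (47.6% ± 8.97) was near Col-0 (SD, n = 2 each). In AT2G39280 the acceptor keeping 15 nt more was at 95.2% and 95.5% in C24, against 42.1% and 41.7% in Col-0 (edgeR adjusted p = 0.00293). Its reads are those of the spliced 208 nt intron above, 41 in C24 and 13 in Col-0, so that these 2 calls are not independent.

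The largest acceptor fall was in AT3G10760, which encodes a homeodomain-like protein. An acceptor on the 3′ UTR side that keeps 29 nt more (chr3:3370918-3370946) had a PSI of 15.0% and 11.5% in C24, against 97.8% and 98.0% in Col-0 (edgeR adjusted p = 4.25e-06). ATMAK3 encodes an N-terminal acetyltransferase, and its 5′ UTR acceptor 57 nt upstream was used in 0 of 50 C24 reads (up to 6%) and 140 of 235 Col-0 reads (edgeR adjusted p = 0.000205). AT1G33470, which encodes an RNA-binding protein, exchanged the 2 adjacent acceptors printed above: the first of them was at 28.6% and 22.7% in C24, against 71.4% and 69.9% in Col-0 (edgeR adjusted p = 0.000662). The locus MIR162a, the precursor gene of a microRNA that targets DCL1, had an acceptor 166 nt upstream at 0.0% and 26.7% in C24, against 57.1% and 63.2% in Col-0 (edgeR adjusted p = 0.0497). Of these 8 acceptor calls those of AT1G70620, AL6 and AT3G10760 were kept without any 1 of the 4 libraries. The other 5 were lost in at least 1 such fit, with a highest adjusted p of 0.086 to 0.454.

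Alternative donors were called in 64 of 1192 events (5.37%), 29 higher and 35 lower in C24. LARP6a, which encodes a La-related RNA-binding protein, had the smallest adjusted p of all tested events. Its GT donor, 6 nt after the GC donor, had a PSI of 27.1% and 23.6% in C24, against 99.6% and 99.5% in Col-0 (edgeR adjusted p = 2.26e-08). The GC donor thus took 457 of 613 reads in C24 and 0 of 487 in Col-0 (up to 0.616%). Kro-0 (25.8% ± 0.554) and Ler-1 (28.3% ± 1.85) were near C24, and Bur-0 (98.7% ± 1.00) was near Col-0 (SD, n = 2 each).

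AT2G04790, annotated as a PTB domain engulfment adapter, combined 3 donors. The GA site was used in 31 of 64 and 25 of 37 C24 reads, against 0 of 86 and 0 of 85 Col-0 reads, when compared with the GT before it (edgeR adjusted p = 9.72e-06). Compared with another GT 4 nt after it, the GA site took all 56 C24 reads and none of 73 Col-0 reads (edgeR adjusted p = 2.22e-06). The intron from the GA site measures 109 nt in the C24 assembly and in the reference. The intron from the GT before the GA site measures 134 nt in the C24 assembly and 128 nt in the reference. AT3G57810 encodes a cysteine proteinase family protein, and in its 5′ UTR the TT site took 13 of 13 and 10 of 11 C24 reads, against 0 of 52 and 0 of 29 Col-0 reads (edgeR adjusted p = 2.05e-05).

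GGH3 encodes a gamma-glutamyl hydrolase, an enzyme that trims the glutamate tails of folates. Its donor 52 nt downstream (chr1:29591914-29591965) had a PSI of 92.9% and 76.9% in C24, against 0.0% and 0.0% in Col-0 (edgeR adjusted p = 1.03e-06). The depth differed as well: 25 reads in C24 and 653 in Col-0. GGH3 lies between GGH1 and GGH2 on chromosome 1, and how reads shared by such related copies were counted is not given in the sources used here, so its value is uncertain. TMT2, a transporter that loads sugars into the vacuole, used a 5′ UTR donor keeping 158 nt more at 85.7% and 96.0% in C24, against 18.9% and 29.7% in Col-0 (edgeR adjusted p = 0.000151). Kro-0 (95.8% ± 1.85, n = 2) was near C24 there.

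In AT3G07510 the second of the 2 donors printed above was at 97.4% and 97.8% in C24, against 26.7% and 44.4% in Col-0 (edgeR adjusted p = 6.63e-05). The first donor had 35 reads in Col-0 and none in C24, and they are the same 35 spliced reads that set its retention value. AT1G34200, a glyceraldehyde-3-phosphate dehydrogenase-like gene, used a donor keeping 182 nt more at 40.0% and 40.9% in C24, against 96.3% and 95.3% in Col-0 (edgeR adjusted p = 0.000213). Of these 8 donor calls, GGH3, LARP6a and both of AT2G04790 were kept without any 1 of the 4 libraries, and the other 4 were lost in at least 1 such fit, with a highest adjusted p of 0.0534 to 0.0831. DESeq2 did not call the AT2G04790 event with donors 4 nt apart (adjusted p = 0.151).

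Skipped exons gave 17 calls among 317 events (5.36%), 7 higher and 10 lower in C24, and their differences were smaller than those of the other types (a median of 4.69 points among calls, against 20.8 for retention). Col-0 libraries had no read that skipped the exon in the 4 largest falls. The 66 nt exon of AT3G05160, which encodes a major facilitator superfamily transporter, was included at 67.2% and 74.9% in C24, against 99.6% and 99.6% in Col-0 (edgeR adjusted p = 3.11e-06), with 108 skipping reads of 373 in C24 and 0 of 492 in Col-0 (up to 0.61%). The gene lies among related transporter genes on chromosome 3, and its value is uncertain for the same reason as that of GGH3. The 34 nt exon of ATMAK3 in its 5′ UTR was at 79.8% and 61.1% in C24, against 99.4% and 99.5% in Col-0 (edgeR adjusted p = 3.43e-05). The 76 nt exon of CAT3, here a cationic amino acid transporter gene (AT5G36940), was at 68.4% and 79.0% in C24, against 98.5% and 99% in Col-0 (edgeR adjusted p = 0.000341). ICR1 encodes a scaffold of ROP GTPases, and its 63 nt exon was at 87.5% and 80.0% in C24, against 98.4% and 98.8% in Col-0 (edgeR adjusted p = 0.0155).

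Exon inclusion rose in AT5G48220, an aldolase-type gene, with 47.7% and 36.4% in C24, against 16.2% and 23.6% in Col-0 (edgeR adjusted p = 0.0305). PAT1 encodes a GRAS protein of phytochrome A signalling, and its 80 nt exon in the 5′ UTR was at 86.7% and 83.2% in C24, against 63.5% and 65% in Col-0 (edgeR adjusted p = 0.0168). The 2 other largest rises, AT1G72190 (5.46 points) and AT3G62370 (4.35 points), began near full inclusion in Col-0. Of these 8 calls that of AT3G05160 was kept without any 1 of the 4 libraries. The other 7 were lost in at least 1 such fit, with a highest adjusted p of 0.0746 to 0.372.

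**Figure D2:**
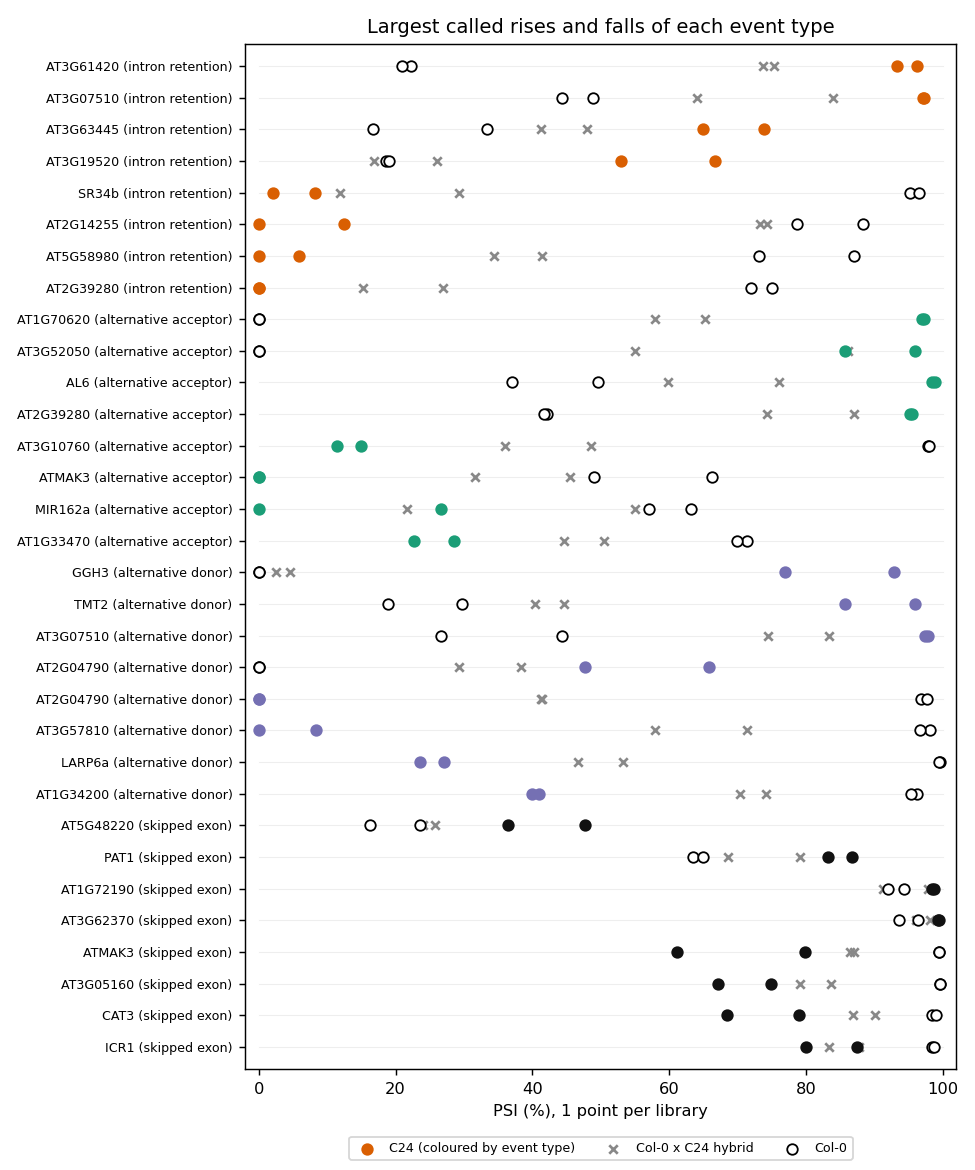
PSI (%) in each library for the 4 largest called rises and the 4 largest called falls of each event type, 1 gene per row; filled points are the 2 C24 libraries (coloured by event type), crosses the 2 Col-0 x C24 hybrid libraries and open circles the 2 Col-0 libraries. C24 and Col-0 do not overlap in any row; in GGH3 the hybrid lies at 2.52% and 4.51%, close to Col-0.

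The position names in the C24 files also give the length of each intron in the assembly of C24 itself, which shows where the accessions differ by an insertion or deletion. The intron of the first form differed in length between C24 and the reference in 127 of 296 called events (42.9%) and in 729 of 4872 tested events that were not called (15.0%). Read the other way, 169 of 4312 events with an intron of equal length were called (3.92%), 62 of 592 with a difference of 1 to 4 nt (10.5%) and 65 of 264 with one of 5 nt or more (24.6%). Introns longer in C24 were called in 76 of 447 cases (17.0%) and shorter ones in 51 of 409 (12.5%). The called share by depth was 5.93% (lowest depth 10 to 29 reads), 5.11% (30 to 99) and 6.33% (100 or more), and by chromosome it ran from 4.97% to 6.53%. Events of a gene share reads, so these counts are a description.

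Splice site letters were read next. Among acceptor and donor events, 54 of 2972 tested (1.82%) and 16 of 142 called (11.3%) had a form without GT or GC and AG in the reference. In 15 of the 16 exactly 1 form lacked the letters, and C24 used that form more than Col-0 in 15 of 15. The letters are those of Col-0, where a site without them is rarely used, so that a call could hardly go the other way. The direction was thus close to fixed in advance by the choice of reference. AT1G70620, AT2G04790, AT3G57810 and SR30 are among them. AT3G13410 is another: there C24 used an acceptor 3 nt away at 50.3% ± 1.19, against 0.0% ± 0.0 in Col-0 (SD, n = 2 each; edgeR adjusted p = 7.61e-08), and the call was kept without any 1 of the 4 libraries. The letters were read in Col-0 sequence; those of C24 at these sites were not used here.

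Among coding acceptors, 29 of 503 events whose length is a multiple of 3, which keep the reading frame, were called (5.77%), and 29 of 934 of other lengths (3.1%). For coding donors these shares were 18 of 266 (6.77%) and 28 of 577 (4.85%). Acceptors 4 to 12 nt apart were called in 3 of 259 events (1.16%) and those over 60 nt apart in 36 of 617 (5.83%). Events on the 5′ UTR side were called in 52 of 751 cases (6.92%), those on the 3′ UTR side in 13 of 214 (6.07%) and those of the coding span in 210 of 3957 (5.31%). Loci without a coding span, noncoding RNA genes among them, had 12 calls in 89 events (13.5%), 2 higher and 10 lower in C24. Those in AT3G63445, AT4G38545 and AT4G38552 are of stretches that read CT and AC at their ends. That is AG and GT on the other strand, so the strand of their reads cannot be told.

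**Figure D3:**
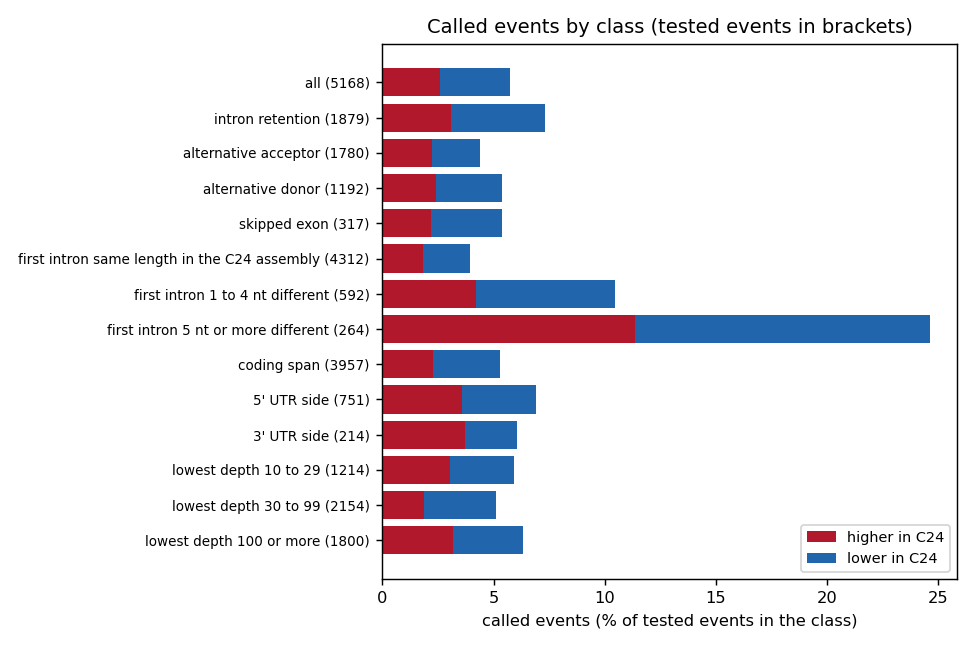
Called events as a percentage of the tested events of a class (horizontal axis), split into events higher in C24 (left part of a bar) and lower in C24 (right part), for all events, the 4 event types, classes of intron length difference, position in the gene and lowest depth; the number of tested events is in brackets. The share is 24.6% where the first intron differs by 5 nt or more between the C24 assembly and the reference and 3.92% where it has the same length.

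Splicing factors are often alternatively spliced themselves, and 28 of 57 listed genes had 114 tested events. The test called 4 of them (3.51%, against 5.73% of all tested events), 1 higher in C24 and 3 lower, and the median difference over the 114 was -1.26 points, against -0.224 points over all tested events. The latter median varied with depth, as given above, and that of the list was not split by depth. The calls were the 2 stretches of SR34b and 2 acceptors of SR30. SR30, another serine/arginine-rich factor, used an acceptor keeping 338 nt more (chr1:2943227-2943564) at 19.9% ± 7.24 in C24, against 48.5% ± 8.25 in Col-0 (SD, n = 2 each; edgeR adjusted p = 0.00859). Its AT acceptor, printed above, had 8 of 146 and 8 of 117 reads in C24, against 0 of 314 and 0 of 312 in Col-0 (up to 0.479%; edgeR adjusted p = 0.00111). In the 10-library fit this AT acceptor was also apart from Bur-0, Kro-0 and Ler-1, all listed at 0.0%. Both SR30 calls were lost whichever of the 4 libraries was left out (adjusted p 0.0643 to 0.301). An alternative donor of SR45a had a PSI of 12.1% ± 2.44 in C24, against 38.4% ± 12.8 in Col-0, and missed the threshold (edgeR adjusted p = 0.0912). So did a donor of RS40 with 13.2% ± 0.0188 in C24, against 24.3% ± 1.32 in Col-0 (SD, n = 2 each; edgeR adjusted p = 0.176). The SR45a and RS40 events were chosen here after their values were seen. Other uncalled events of the list went the other way. A donor of SR34b was at 31.9% ± 2.05 in C24, against 5.26% ± 7.44 in Col-0 (SD, n = 2 each, edgeR adjusted p = 0.187).

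The remaining lists were small, and their shares stand beside the 5.73% called of all tested events. Among flowering genes 1 of 13 events was called (7.69%). FLK encodes a KH-domain protein that promotes flowering by keeping the repressor FLC low. Its 486 nt 5′ UTR intron had a PSI of 1.15% and 4.92% in C24, against 24.6% and 28.2% in Col-0 (edgeR adjusted p = 0.00118). Bur-0 (0.49% ± 0.693), Kro-0 (0.0% ± 0.0) and Ler-1 (0.885% ± 1.25) were near C24 (SD, n = 2 each). The difference of C24 from their mean was not called. PAT1 gave all 3 calls among 24 events of light signalling genes (12.5%), each higher in C24. Besides its exon, an acceptor keeping 305 nt more was at 80.5% and 73.8% in C24, against 50% and 48.4% in Col-0 (edgeR adjusted p = 0.00714), and both values share the same 32 C24 and 197 Col-0 reads of the other form. The 1 tested event of the glucosinolate list was called, a 70 nt intron of MVP1, a myrosinase-associated lipase-like gene, at 6.25% and 6.56% in C24, against 21.7% and 18.6% in Col-0 (edgeR adjusted p = 0.027). For MVP1, Bur-0 (8.13% ± 3.34), Kro-0 (4.15% ± 2.15) and Ler-1 (10.9% ± 0.415) were nearer to C24 than to Col-0 (SD, n = 2 each). There too the difference of C24 from their mean was not called. No event was called by edgeR among 30 of the circadian clock, 2 of immunity and 6 of abiotic stress. The 4 calls named in FLK, PAT1 and MVP1 were lost without at least 1 of the 4 libraries, with a highest adjusted p of 0.151 to 0.274.

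Photosynthesis genes had 10 calls among 77 events (13%) in 7 of 17 tested genes, 6 higher and 4 lower in C24, against 5.73% of all tested events. LHCB5, a minor antenna protein of photosystem II, had the one large difference. A 36 nt stretch of its coding span was kept at 68.2% and 68.5% in C24, against 99.1% and 99.5% in Col-0 (edgeR adjusted p = 7.36e-06). Bur-0 (77.3% ± 2.68) and Ler-1 (75.3% ± 7.29) were nearer to C24, and Kro-0 (99.1% ± 0.163) was near Col-0 (SD, n = 2 each). C24 minus the mean of these accessions was -15.6 points (edgeR adjusted p = 0.000467). The hybrid libraries were at 98.7% and 78.2%. The stretch reads CC and GC at its ends and its borders share 9 bases, so that its exact ends can be placed in several ways. Stretches with such a repeat of at least 5 bases made up 47 of 167 tested retention events without splice site letters (28.1%) and 109 of 1712 with them (6.37%). More of the 167, 103 events, could be placed within their shared bases to read GT and AG on the other strand, against 0 of the 1712. Among called events without the letters this was so for 10 of 21. LHCB4.1 had a stretch of 264 nt at 98.6% and 98.6% in C24, against 92.4% and 92.4% in Col-0 (edgeR adjusted p = 0.0283).

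The other photosynthesis calls were under 1 point. The retention stretches of PSAF, CA1, LHCB3, LHCA4 and LHCB6 are not annotated introns. Spliced reads here are those that remove exactly such a stretch, so a PSI near 100% does not mean that annotated introns were kept. The stretch of LHCB6 reads GA and GA at its ends. PSAF, the photosystem I subunit that docks plastocyanin, had 41 spliced reads among 45765 in C24 and 0 among 87025 in Col-0, a difference of -0.0887 points (edgeR adjusted p = 0.00497). CA1, a chloroplast carbonic anhydrase, had 0 spliced reads of 3861 in C24 and 56 of 7374 in Col-0, a difference of 0.74 points (edgeR adjusted p = 0.00222). LHCB3 differed by 0.863 points, LHCA4 by -0.136 points and LHCB6 by 0.108 points. Outside this list, THI1, an enzyme of thiamine synthesis, had 3 higher calls. In the most deeply read called event, a 126 nt stretch, it differed by 0.0424 points, and in an overlapping 156 nt stretch by 0.0442 points. Neither stretch is an annotated intron. Both read TG and GG at their ends, and their borders share 6 and 8 bases. A 70 nt intron of the same gene was at 99.1% ± 0.353 in C24, against 94.7% ± 1.56 in Col-0 (SD, n = 2 each; edgeR adjusted p = 0.0248). All 3 THI1 calls were lost whichever of the 4 libraries was left out (adjusted p 0.181 to 0.361). The calls of LHCB6, LHCA4, LHCB4.1, LHCB3 and the 126 and 156 nt stretches of THI1 were lost in the fit of the 10 libraries of pure accessions. Without any 1 of the 4 libraries the call was kept for LHCB5 and for none of the other photosynthesis calls named here.

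Several genes held more than 1 call. There were 48 such genes, with 131 events in all, and 19 of these genes had only higher, 16 only lower and 13 both kinds of call. DRH1, which encodes a DEAD-box RNA helicase, had 5 calls, all lower in C24, around a 611 nt intron. That intron was retained at 4.89% ± 0.667 in C24, against 33.4% ± 12.2 in Col-0 (SD, n = 2 each; edgeR adjusted p = 8.6e-05), and the exon inside it was included at 0.75% ± 0.764 in C24, against 10% ± 3.58 in Col-0 (edgeR adjusted p = 0.000532). ATG8E, an autophagy protein, had 3 lower calls around a 570 nt stretch, the largest an acceptor at 88.8% ± 2.00 in C24, against 99.7% ± 0.0479 in Col-0 (edgeR adjusted p = 0.000137). RBL6, a rhomboid-like gene, had 3 higher calls at 3 places, among them a donor at 50.2% ± 2.55 in C24, against 2.7% ± 3.82 in Col-0 (edgeR adjusted p = 0.000538). DRH1, ATG8E and RBL6 were chosen here after their values were seen. Each of the calls named in them was lost without at least 1 of the 4 libraries, with a highest adjusted p of 0.0643 to 0.123.

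The hybrid and the other accessions place these differences. Of 295 called events with at least 10 reads in both Col-0 x C24 libraries, 273 had a hybrid mean between those of its parents, and among calls of at least 10 points 174 of 183 did. The median hybrid lay 50% of the way between Col-0 and C24. These comparisons share the parental libraries with the calls. Calls were also selected for parents that differ, which leaves room for a hybrid mean between them. The share over all tested events was not counted here. LARP6a was at 46.7% and 53.2% and AT2G04790, at the GA site, at 29.2% and 38.4% in the hybrid libraries.

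C24 was then compared with the mean of Bur-0, Kro-0 and Ler-1, a contrast without Col-0. Of 4937 events, 314 passed (6.36%), of which 135 were higher in C24 and 179 lower. Of the 284 calls against Col-0 that could be tested there, 138 were also called (137 in the same direction) and 146 were not; the 2 comparisons share the C24 libraries. AT2G04790 used its GA site in C24 and in none of the reads of Bur-0, Kro-0 and Ler-1, a difference of 56.7 points (edgeR adjusted p = 1.8e-08). The second GGH3 donor also had no read in those accessions. AT3G10760 was at 92.3% ± 0.0 in Bur-0, 93.0% ± 5.84 in Kro-0 and 94.5% ± 1.64 in Ler-1 (SD, n = 2 each), near Col-0. For AT1G70620 the other accessions were near C24, with Bur-0 at 97.4% ± 0.281, Kro-0 at 98.2% ± 0.326 and Ler-1 at 98.4% ± 0.0543 (SD, n = 2 each), with Col-0 alone at 0.0%.

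**Figure D4:**
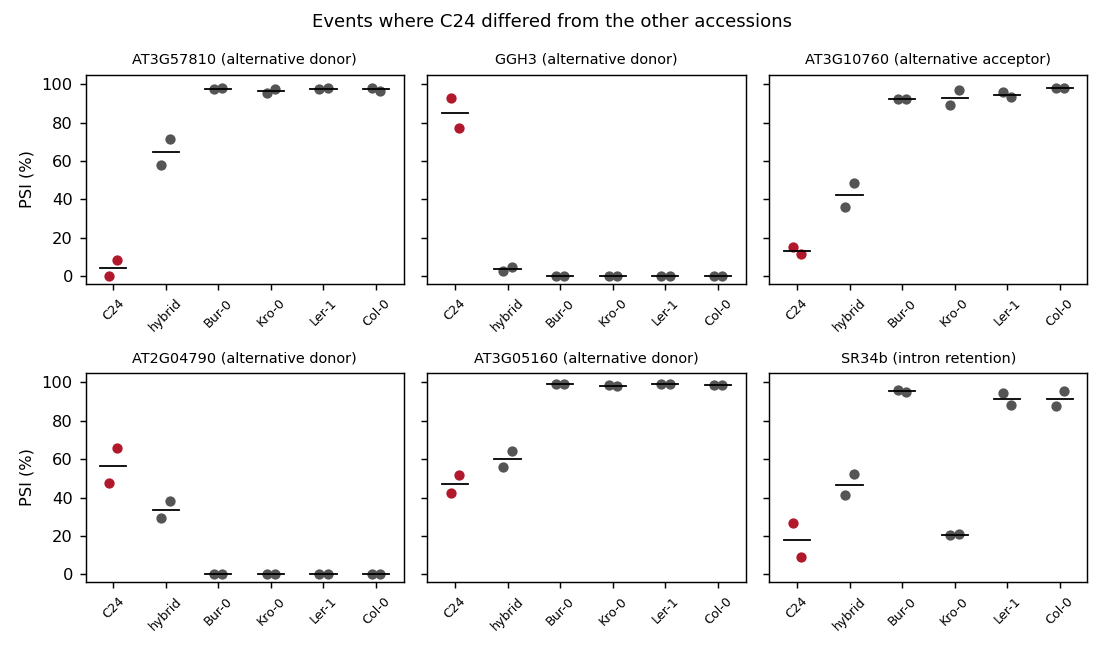
PSI (%, vertical axis) in each library of C24, the Col-0 x C24 hybrid, Bur-0, Kro-0, Ler-1 and Col-0 for the 6 events with the largest called difference between C24 and the mean of Bur-0, Kro-0 and Ler-1 among calls against Col-0, 1 per gene; points are libraries and bars the mean of 2. C24 stands apart from all 4 other accessions in 5 panels, and in SR34b (the 236 nt stretch) Kro-0 at 20.8% is near C24 at 18.1%.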

How the data were processed

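PolyA RNA sequencing of leaves was analysed from deposited lists of splicing events, 1 per library. Each list gives counts of reads for the 2 forms of an event, and a PSI fraction that the authors computed; in every row it was second-form reads over the sum of both forms and 1. Per the submitters' processing notes the build was TAIR10, and HISAT2 (no version) and edgeR 3.0.8 were used; their roles, the counting rule and filters are not given in the sources used here. Which form is which was read from the annotated introns. RefSeq TAIR10.1 supplied names, coding spans and sequences.

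Events with at least 10 reads in each of the 4 libraries were tested with edgeR 4.0.16 (R 4.3.3; quasi-likelihood, library terms, form-by-group term, Benjamini-Hochberg, threshold 0.05), and were tested on simulated data. A 10-library fit gave the contrast with Bur-0, Kro-0 and Ler-1. Alternatives used limma 3.58.1, DESeq2 1.42.0, other depth minimums (20 and 1) and left-out libraries. Python 3.11.15, pandas 2.3.3, numpy 2.4.6, scipy 1.17.1 and matplotlib 3.10.9 did the rest. Where a form had 0 reads, 3 reads gave the upper limit, which covers counting error only.

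The members and gene lists were chosen with earlier results of these data known. Named events are the 4 largest called rises and falls per event type whose libraries do not overlap, 1 per gene, called list genes (at most 14), the 6 called events with most reads and the 6 furthest from the other accessions.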

Additional observations from a re-analysis of the deposited data

Results flagged for a closer look

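Among events called in both comparisons, 6 were set apart because C24 also differed from the mean of Bur-0, Kro-0 and Ler-1 in the edgeR test of that contrast. C24 minus that mean was -93.0 points for the donor of AT3G57810, 84.9 points for the donor of GGH3, -80.0 points for the acceptor of AT3G10760, 56.7 points for the donor of AT2G04790, -52.0 points for a donor of AT3G05160 and -51.2 points for the 236 nt stretch of SR34b. Their adjusted p in that contrast ran from 1.66e-08 (GGH3) to 3.33e-05 (SR34b). In the AT3G05160 donor event PSI was 42.2% and 51.7% in C24, against 98.8% and 98.9% in Col-0.

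Some events had no counterpart in the comparison. The C24 list has 120 events that the Col-0 list does not have, 119 of them intron retention, and the 117 with at least 10 reads in both C24 libraries had a median C24 PSI of 26.7%. No Col-0 value stands beside them, so whether they differ was not tested.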

How the results depend on the processing

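Counts of calls changed with the tool and with the number of libraries. Beside the 296 calls reported, DESeq2 called 186 and limma on PSI 39 (all of at least 10 points), and limma on the log2 ratio 228 (115 of at least 10 points, against 184). Retention calls numbered 137 (58 higher, 79 lower) in the main test, 81 (29, 52) with DESeq2, 20 (4, 16) with limma on PSI and 85 (34, 51) with limma on the log2 ratio. Limma on PSI called 12 acceptors, 7 donors and 0 skipped exons by adjusted p, while its unadjusted p was under 0.05 in 785 events of all types; DESeq2 called 9 skipped exons. Without 1 of the 4 libraries 28 (without Col-0 replicate 2) to 70 events (without C24 replicate 2) were called, 26 to 59 of at least 10 points, where the lone library is assumed to vary like the others. By type these fits called 14 to 28 retentions (1 to 3 higher, 12 to 25 lower), 7 to 17 acceptors, 6 to 20 donors and 1 to 5 skipped exons.

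In the 10-library fit, added after the data were seen for this purpose, counts are given without C24 replicate 1, C24 replicate 2, Col-0 replicate 1 and Col-0 replicate 2, in that order. Calls numbered 127, 136, 150 and 163, those of at least 10 points 97, 109, 115 and 123, retentions 54, 60, 67 and 80 (higher 14, 11, 22 and 24, lower 40, 49, 45 and 56), acceptors 41, 38, 39 and 37, donors 26, 29, 35 and 36 and skipped exons 6, 9, 9 and 10. Against the other accessions 152 (without C24 replicate 1) and 159 (without C24 replicate 2) were called, against 314. The acceptor difference in median PSI, -0.935, became 1.24 points when all reads were pooled into 1 share. The replicate block gave 318 calls and kept all 296; replicates of the same number did not deviate together (correlation -0.0441 across events), so the numbers are not taken to pair the samples. Of the 50 named events none reversed, 11 stayed called without any 1 of the 4 libraries, and 25 of the 45 in the 10-library fit did so there. DESeq2 called 40 of the 50, limma on the log2 ratio 39, and limma on PSI left 38 uncalled. Where the shallowest library had 10 to 29 reads, all 72 calls differed by at least 10 points.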
